A study of Mus musculus with 18 samples.

Results

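The 10 genes described here encode proteins that sit where the contractile lattice of the muscle fibre takes up strain, or that are known to gather at damaged sarcomeres. They are Ankrd1, Ankrd2, Ankrd23, Csrp3, Xirp1, Xirp2, Flnc, Nrap, Actn2 and Actn3. They were chosen by name, with earlier results of these data known. Counts of called members therefore describe these genes and are no independent test of the set. Each is the row of the deposited gene count table whose Ensembl identifier carries that symbol, so 10 of the 54532 genes in the table are members. All 10 passed the filter on low counts, after which 17833 genes were tested. The RNA came from gastrocnemius, the large calf muscle, of female C57BL/6 mice. Muscles lacking Zfp697 carried a conditional knockout in skeletal muscle (mKO), and their comparators carried the floxed gene (flox, labelled flox/flox). The labels used here do not give the promoter that drove Cre. Within each genotype 3 libraries came from mice in ordinary cages (control), 3 from hindlimbs unloaded for 10 days (unloading), and 3 from hindlimbs loaded again for 3 days (reloading). The length of unloading before reloading is not given in the labels of the reloaded samples. Whether the 3 libraries of each group are separate animals is not stated in the labels, so p-values measure the spread between these libraries, which may be partly technical.

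Thin actin filaments of neighbouring sarcomeres are anchored at the Z-disc by alpha-actinin, and titin, filamin C and their partners carry tension across and around it. Muscle ankyrin repeat proteins and the LIM protein encoded by Csrp3 bind titin or Z-disc proteins and can also move to the nucleus, for which they are often described as stretch sensors. Filamin C and the Xin proteins collect at small sarcomere lesions after strenuous contraction. Return of weight bearing to an unloaded muscle is a common model of such strain.

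The 18 libraries held 45069595 to 51592566 assigned reads each, and the least abundant member reading, Ankrd1 in flox control library 3, still rested on 252 reads. Levels are given as CPM, counts per unit library total (the usual CPM unit) after scaling by TMM factors, which ran from 0.952 to 1.095. Mitochondrial genes took 7.67 to 11.9% of reads. Fast-fibre markers summed to 90550 to 137400 CPM and slow-fibre markers to 702.2 to 2466 CPM, with none at 0. Zfp697 itself was scarce, at 1.05 to 1.31 CPM in mKO controls and 0.984 to 1.598 CPM in flox controls. Under unloading it ran from 1.09 to 2.47 CPM in mKO and from 1.585 to 1.74 CPM in flox, and after reloading from 1.48 to 1.95 CPM in mKO and from 2.33 to 2.795 CPM in flox. The labels do not say which part of the gene was deleted, so these gene-wide counts do not check the genotype labels. The table header sets no strand option, and the exons of Nrap overlap those of Habp2 on the opposite strand, whose count reached 237 reads in a library at most, against at least 64761 for Nrap.

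Promoter windows from RefSeq (GRCm38.p6, 250 bases before to 50 bases after the annotated start) were matched for 8 of the 10 members; Xirp1 and Actn3 had no entry. The 4 windows shown, 5′ to 3′ on the gene's own strand, are those of Ankrd1, Flnc, Xirp2 and Ankrd2, for their matches before the start to the TEAD, AP-1, MEF2 and TATA letters. Other windows with matches are named without their sequence. Capitals mark CATTCC in Flnc and its reverse complement GGAATG in Ankrd1, TGACTCA and the MEF2 site in Xirp2, and TATAAA in Ankrd2.
Ankrd1 (chr19:36119795-36120094, minus strand): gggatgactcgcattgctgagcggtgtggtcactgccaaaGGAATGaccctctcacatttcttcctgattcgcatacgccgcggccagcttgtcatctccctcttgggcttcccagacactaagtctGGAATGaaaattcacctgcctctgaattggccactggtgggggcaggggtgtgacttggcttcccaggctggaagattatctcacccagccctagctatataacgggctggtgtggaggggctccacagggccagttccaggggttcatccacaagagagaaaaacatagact
Flnc (chr6:29433006-29433305, plus strand): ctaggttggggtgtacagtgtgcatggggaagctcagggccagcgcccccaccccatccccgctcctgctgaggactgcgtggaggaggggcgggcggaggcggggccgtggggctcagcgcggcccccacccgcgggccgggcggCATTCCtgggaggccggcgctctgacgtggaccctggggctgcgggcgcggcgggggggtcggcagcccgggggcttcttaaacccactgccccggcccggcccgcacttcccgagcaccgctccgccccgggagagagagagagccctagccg
Xirp2 (chr2:67445752-67446051, plus strand): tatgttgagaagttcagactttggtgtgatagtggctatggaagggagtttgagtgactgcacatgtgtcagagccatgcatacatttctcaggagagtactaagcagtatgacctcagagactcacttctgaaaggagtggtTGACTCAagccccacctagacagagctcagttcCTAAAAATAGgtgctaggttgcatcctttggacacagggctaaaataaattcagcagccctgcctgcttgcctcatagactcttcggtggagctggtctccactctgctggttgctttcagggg
Ankrd2 (chr19:42035777-42036076, plus strand): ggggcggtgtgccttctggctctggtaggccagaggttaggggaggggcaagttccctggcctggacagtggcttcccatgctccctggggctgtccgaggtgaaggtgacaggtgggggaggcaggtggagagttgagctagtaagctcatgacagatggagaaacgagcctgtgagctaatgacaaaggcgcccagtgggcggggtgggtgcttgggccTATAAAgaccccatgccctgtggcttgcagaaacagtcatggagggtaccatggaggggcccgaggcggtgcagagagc

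CATTCC, the core of the M-CAT element that TEAD factors bind, was found on either strand in 3 of the 8 windows, those of Ankrd1, Ankrd23 and Flnc, against 14.7% of 32841 windows in the table. Ankrd1 held it at bases -210 to -205 and again at -123 to -118, counting the first transcribed base as 0. In Flnc it stood at -104 to -99, and in Ankrd23 at 36 to 41, past the start. TGACTCA, the AP-1 element, was found in Xirp2 only, at -107 to -101 (5.2% of all windows), and the same window held a MEF2 site at -74 to -65 (3.19%). TATAAA was found in Ankrd2 at -29 to -24 (13.6%). No window held the CArG box of SRF, which 1.63% of all windows held, and 6 of 8 held the E-box CANNTG, against 72.3%. None of these motifs overlapped another of a different kind in the 8 windows. A match in letters says nothing on whether a factor binds there.

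Per base of exon (RPKM, the CPM divided by exon length in kilobases), Actn3 stood above the other 9 genes in all 6 groups, with 2957 ± 208 RPKM in mKO controls and 2745 ± 208 RPKM in flox controls (SD, n = 3 each). Actn3 encodes alpha-actinin-3, the Z-disc anchor of fast fibres, which make up most of this muscle. Nrap came next in both control groups at 265.9 ± 35.8 RPKM in mKO and 322.8 ± 42.5 RPKM in flox, with ranges that overlapped those of the gene below it in each. Ankrd1 was the lowest of the 10 in both control groups, at 5.58 ± 1.66 RPKM in mKO and 4.73 ± 1.33 RPKM in flox. In the middle of the order, Flnc, Ankrd2, Csrp3 and Ankrd23 followed one another in flox controls with ranges that overlapped between neighbours, although those of Flnc (66.35 to 108.0 RPKM) and Ankrd23 (34.7 to 42.3 RPKM) lay apart. After reloading, Actn2 stood next below Actn3, at 445.4 ± 83.0 RPKM in mKO and 513.1 ± 43.9 RPKM in flox, with a range that overlapped that of the next gene in each (Nrap in mKO, Ankrd2 in flox). Ankrd1 then had 27.9 ± 16.6 RPKM in mKO and 72.1 ± 12.9 RPKM in flox. In reloaded flox muscle its range overlapped that of Xirp1, just below it.

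**Figure D1:**
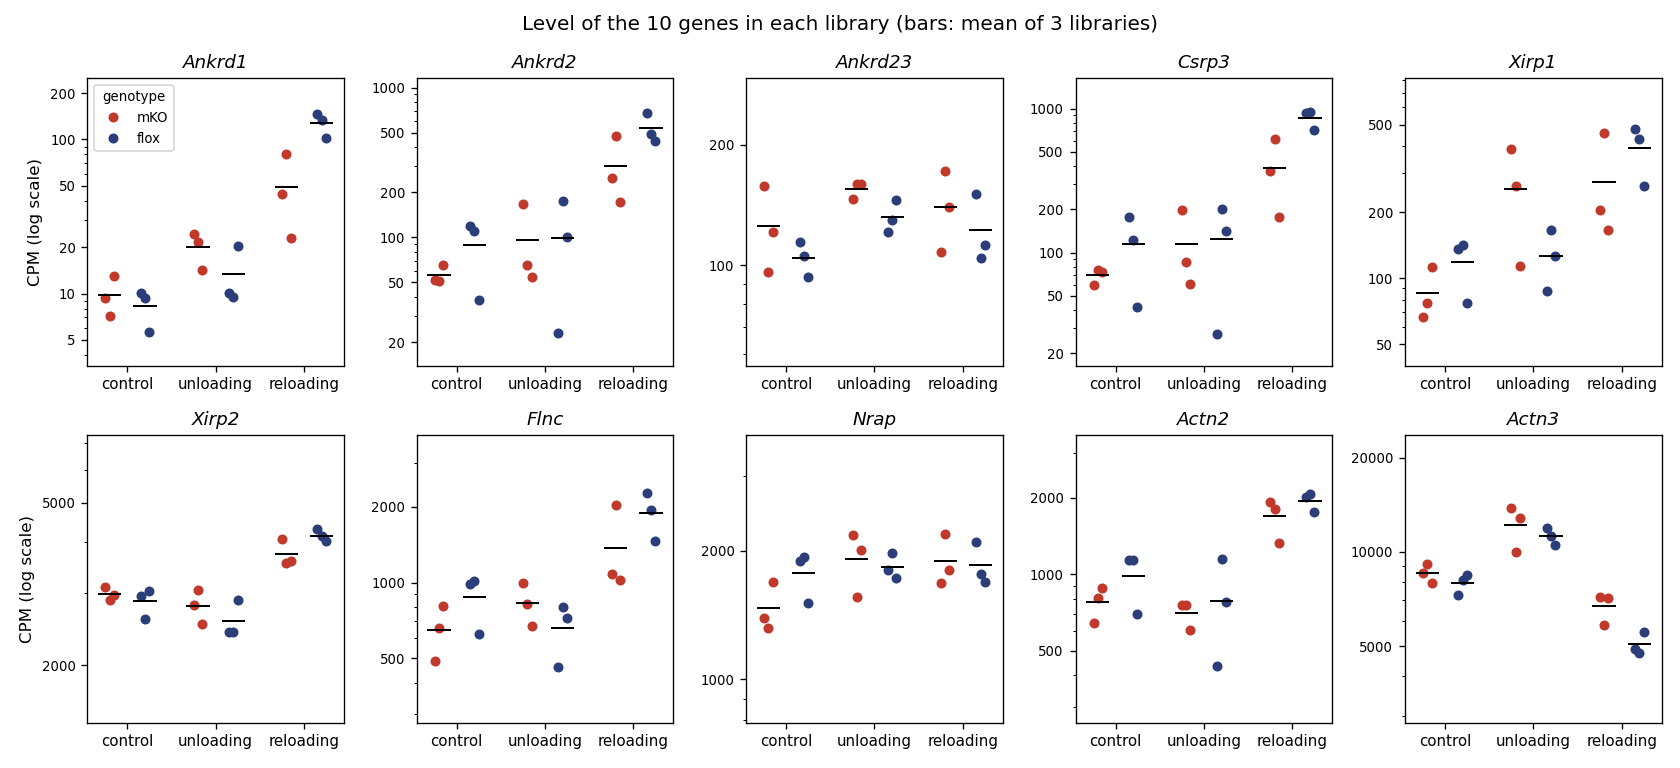
Level of each of the 10 genes in CPM (log scale) in every library, by loading state from control to reloading, with mKO left of flox. Points are libraries and bars are means of 3 libraries. The mKO reloading libraries of Ankrd1 sit at 22.8 to 80.8 CPM, below the flox reloading libraries at 102.2 to 146.5 CPM, while the points of Ankrd23 and Nrap overlap across most groups.

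The first question was which of these genes changed when weight bearing returned. In mKO muscle, reloading against unloading, 5 of the 10 members were called, while in the table as a whole 18.3% of genes were called, 9.53% higher and 8.81% lower. Ankrd1, Csrp3, Xirp2 and Actn2 rose and Actn3 fell, and the median log2 fold change of the 10 was 0.58, beside 0.01 over all tested genes. In flox muscle 8 of the 10 were called, 7 higher and 1 lower, beside 31.9% of all genes, 17% higher and 14.9% lower. Those that rose were the stretch sensors Ankrd1, Ankrd2 and Csrp3, both Xin genes, Flnc and Actn2, and Actn3 fell. The members' median in flox was 1.41, beside 0.00 over all tested genes. In these 8 genes the reloaded and unloaded flox libraries had separate CPM ranges, against 44.0% of genes overall. Calls are from edgeR's quasi-likelihood F test with p-values adjusted by Benjamini and Hochberg's method across every tested gene, at 0.05. The mKO count was 3 without unloading library 3 and 3 without reloading library 2, and the flox count stayed at 8 whichever library was left out. Markers of other cells and of new fibres were also measured in these libraries. The summed CPM of 10 macrophage markers ran from 150.3 to 215.2 in mKO reloading and from 96.3 to 145.3 in mKO unloading, and from 300.5 to 454.3 in flox reloading and from 139.0 to 159.0 in flox unloading. That of 9 regenerating-fibre markers ran from 2157 to 2925 in mKO reloading and from 148.5 to 495.2 in mKO unloading. In flox it ran from 1669 to 2317 in reloading and from 199.4 to 543.7 in unloading. On average Actc1 carried most of that sum, with a mean over the 18 libraries of 1071 CPM, beside 72.1 CPM for Myh8, the next. Of these 9, reloading raised 5 in mKO and 6 in flox and lowered 0. Myh8 (0.36 in mKO, -0.74 in flox) and Myod1 (-0.26 in mKO, -0.29 in flox) did not pass. The 8 fibroblast and tendon markers summed to 1912 to 2406 CPM in mKO reloading and 981.4 to 1291 in mKO unloading. In flox they summed to 2405 to 3522 in reloading and 1132 to 1343 in unloading. Of these 8, reloading raised 5 in mKO, and raised 5 and lowered 1 in flox. The collagen genes Col1a1 and Col3a1 rose by 2.51 and 2.23 in mKO, and by 2.63 and 3.05 in flox. Pdgfra did not pass in either (-0.15 in mKO, -0.03 in flox). Dcn was lower in flox (-0.40), and its mKO value of -0.23 did not pass. The 6 endothelial markers summed to 277.8 to 299.3 CPM in mKO reloading and 239.2 to 258.6 in mKO unloading, and to 324.9 to 366.3 in flox reloading and 246.4 to 250.8 in flox unloading. All 4 sums had separate ranges in both genotypes. The 6 smooth muscle markers summed to 1124 to 1239 CPM in mKO reloading and 1196 to 1330 in mKO unloading, and to 1004 to 1100 in flox reloading and 1168 to 1290 in flox unloading. None of these markers was at 0 in those libraries, and their part in the members' changes was not tested.

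Reloaded muscle was also set against controls. In mKO, 6 of the 10 were called, all higher, beside 2.18% of all genes (1.34% higher, 0.841% lower), namely Ankrd1, Ankrd2, Csrp3, Xirp1, Flnc and Actn2. Without any 1 of the mKO control libraries, or without mKO reloading library 2, only Ankrd1 of these 6 was still called. In flox, 8 were called, 7 higher and 1 lower, beside 22.6% of all genes (12.3% higher, 10.3% lower). After unloading alone, 2 members in mKO (beside 7.75% of all genes) and 1 in flox (beside 5.74%) differed from controls. The comparisons of reloading with unloading and with control share the reloaded libraries, and those of unloading with control and with reloading share the unloaded ones.

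**Figure D2:**
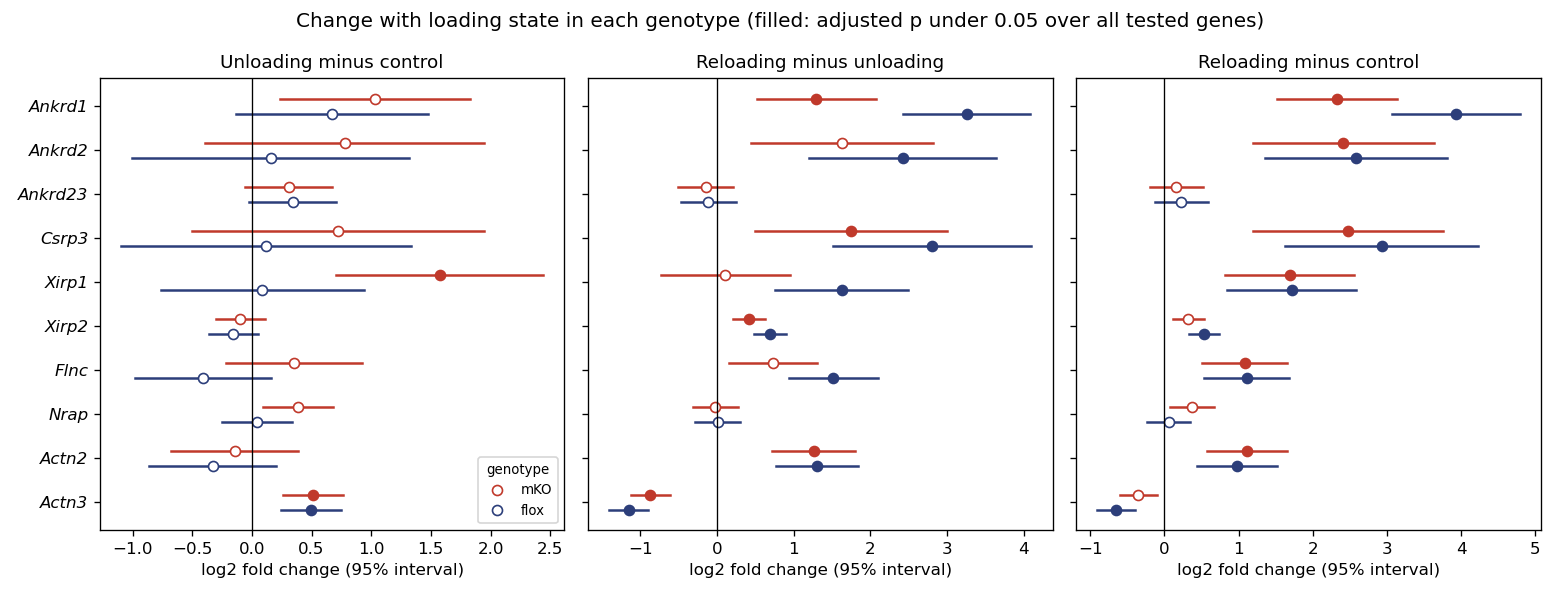
Log2 fold change of the 10 genes with its 95% interval in 3 comparisons of loading state, mKO above flox. Filled points passed an adjusted p of 0.05 over all tested genes. Ankrd1 has a reloading against unloading change of 1.30 in mKO and 3.26 in flox, and Actn3 lies on the lower side in both at -0.87 and -1.15.

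Ankrd1 (ENSMUSG00000024803, GRCm38 chr19:36111965-36119844, minus strand) encodes the ankyrin repeat protein CARP, which binds the elastic part of titin and is found in the nucleus as well. It had 9.40, 7.16 and 12.97 CPM in the mKO controls and 10.0, 9.34 and 5.67 CPM in the flox controls. Unloaded muscle held 24.4, 21.6 and 14.3 CPM in mKO and 10.2, 9.45 and 20.4 CPM in flox. Reloaded muscle held 44.4, 80.8 and 22.8 CPM in mKO and 146.5, 133.1 and 102.2 CPM in flox. All 6 reloaded libraries were above all 6 controls, every flox reloading library was above every mKO reloading library, and mKO reloading library 3 fell inside the mKO unloading range. Reloading against unloading, Ankrd1 rose by 1.30 ± 0.37 on the log2 scale in mKO (SE, adjusted p = 0.0197 by edgeR) and by 3.26 ± 0.39 in flox, 9.55-fold (adjusted p = 8.5e-06). The mKO rise was no longer called without mKO reloading library 2, the highest of its group (0.74, adjusted p = 0.163), or without mKO unloading library 3, the lowest (1.10, adjusted p = 0.0959). Against controls the reloaded level was higher by 2.33 ± 0.38 in mKO (adjusted p = 0.00624) and by 3.93 ± 0.41 in flox (adjusted p = 6.19e-06). The unloaded mKO libraries all stood above the mKO controls, but the difference of 1.03 ± 0.38 did not pass (adjusted p = 0.104), nor did that of 0.67 ± 0.38 in flox (adjusted p = 0.346). A model of only the 2 groups compared did call the mKO difference (adjusted p = 0.0332).

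Ankrd2 (ENSMUSG00000025172, chr19:42036038-42045110, plus strand) encodes Arpp, a related ankyrin repeat protein known from slow fibres and from stretched muscle. It had 52.2, 50.8 and 65.2 CPM in the mKO controls and 119.7, 110.3 and 38.0 CPM in the flox controls. Unloaded muscle held 168.1, 65.5 and 54.7 CPM in mKO and 23.2, 175.6 and 100.2 CPM in flox. Reloaded muscle held 247.7, 473.5 and 172.5 CPM in mKO and 677.8, 486.7 and 438.4 CPM in flox. Every reloaded library stood above every control, and above every unloaded library of its own genotype except that the margin in mKO was narrow (172.5 against 168.1 CPM). The mKO difference from unloading, 1.63 ± 0.56, just missed the threshold (adjusted p = 0.0519 by edgeR), and in flox Ankrd2 rose by 2.42 ± 0.58 (adjusted p = 0.00363). The mKO difference passed in DESeq2 (adjusted p = 0.0368), in a model of only the 2 groups (0.0405), with the stricter filter on low counts (0.0484) and without mKO unloading library 1 (2.31, 0.0245) or mKO reloading library 3 (1.91, 0.0402). Against controls, Ankrd2 was higher by 2.41 ± 0.58 in mKO (adjusted p = 0.0369) and by 2.58 ± 0.58 in flox (adjusted p = 0.00357). Without mKO reloading library 2 that mKO value was 1.91 (adjusted p = 0.193).

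Ankrd23 (ENSMUSG00000067653, chr1:36530188-36536883, minus strand) encodes Darp, the remaining muscle ankyrin repeat protein, and it was called in none of the comparisons. Its lowest library held 93.6 CPM and its highest 172.2 CPM, and the means were 125.2 ± 30.9 CPM in mKO controls and 104.4 ± 10.3 CPM in flox controls (SD, n = 3 each). Under unloading they were 155.0 ± 7.80 CPM in mKO and 132.3 ± 12.4 CPM in flox, and after reloading 140.0 ± 32.2 CPM in mKO and 122.4 ± 24.6 CPM in flox. The reloading against unloading difference was -0.15 in mKO (95% interval -0.51 to 0.22, adjusted p = 0.609) and -0.11 in flox (-0.47 to 0.25, adjusted p = 0.662). The flox unloading libraries all stood above the flox controls, by 0.34 ± 0.17, which did not pass (adjusted p = 0.277).

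Csrp3 (ENSMUSG00000030470, chr7:48830398-48848033, minus strand) encodes muscle LIM protein, which binds alpha-actinin and telethonin at the Z-disc. It had 59.7, 75.4 and 73.5 CPM in the mKO controls and 177.7, 122.1 and 41.9 CPM in the flox controls. Unloaded muscle held 198.3, 85.6 and 60.7 CPM in mKO and 27.3, 201.9 and 141.9 CPM in flox. Reloaded muscle held 368.0, 610.8 and 177.6 CPM in mKO and 936.3, 953.0 and 707.0 CPM in flox. Flox reloading stood apart from every other group, and mKO reloading library 3 lay below mKO unloading library 1. The rise against unloading was 1.75 ± 0.59 in mKO (adjusted p = 0.0481) and 2.81 ± 0.62 in flox (adjusted p = 0.00195, edgeR in both). The mKO call was lost with slow-fibre marker level as a covariate (1.68, adjusted p = 0.0648) and without mKO unloading library 2 (1.58, 0.128) or 3 (1.44, 0.178) or mKO reloading library 1 (1.78, 0.0839) or 2 (1.25, 0.2). Against controls it was higher by 2.47 ± 0.61 in mKO (adjusted p = 0.0406) and by 2.93 ± 0.62 in flox (adjusted p = 0.00226). Without mKO reloading library 1 that mKO value was 2.50 (adjusted p = 0.061).

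Xirp1 (ENSMUSG00000079243, chr9:120013755-120023598, minus strand) encodes Xin, an actin-binding repeat protein found at sites of sarcomere injury. It had 66.7, 77.3 and 112.8 CPM in the mKO controls and 136.6, 142.0 and 77.2 CPM in the flox controls. Unloaded muscle held 387.6, 263.3 and 113.9 CPM in mKO and 87.4, 165.1 and 125.7 CPM in flox. Reloaded muscle held 203.5, 456.7 and 166.1 CPM in mKO and 477.8, 428.9 and 263.3 CPM in flox. In mKO the unloaded and reloaded ranges overlapped widely and both lay above the mKO controls, while in flox the controls and unloaded libraries overlapped and the reloaded ones stood above them. Unloading raised Xirp1 by 1.58 ± 0.41 in mKO (adjusted p = 0.0269 by edgeR), with a flox difference that did not pass. That call was lost without mKO control library 1 (1.42, adjusted p = 0.103) or 2 (1.51, 0.0954) or mKO unloading library 1 (1.14, 0.151). The reloading against unloading change was 0.11 ± 0.40 in mKO (95% interval -0.73 to 0.96, adjusted p = 0.886) and 1.63 ± 0.41 in flox (adjusted p = 0.00549). The mKO value was -0.46 without mKO reloading library 2 and -0.24 without mKO unloading library 3. Against controls, the reloaded level was higher by 1.69 ± 0.41 in mKO (adjusted p = 0.0402) and by 1.72 ± 0.41 in flox (adjusted p = 0.00566). The mKO call ended in a model of only the 2 groups (adjusted p = 0.0528).

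Xirp2 (ENSMUSG00000027022, chr2:67446002-67526614, plus strand) encodes the larger Xin relative, also called myomaxin. It had 3115, 2883 and 2973 CPM in the mKO controls and 2954, 2600 and 3042 CPM in the flox controls. Unloaded muscle held 2810, 3063 and 2515 CPM in mKO and 2407, 2410 and 2887 CPM in flox. Reloaded muscle held 4083, 3553 and 3589 CPM in mKO and 4299, 4143 and 4017 CPM in flox. All 6 reloaded libraries were above the other 12. The rise against unloading was small and tight, 0.42 ± 0.10 in mKO (adjusted p = 0.00614) and 0.69 ± 0.10 in flox, 1.62-fold (adjusted p = 4.1e-05). The mKO call was lost in a model of only the 2 groups (adjusted p = 0.0618). Against controls the mKO difference of 0.32 ± 0.10 did not pass in edgeR (adjusted p = 0.0908) but did in DESeq2 (adjusted p = 0.0191), and the flox rise was 0.54 ± 0.10 (adjusted p = 0.000772).

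Flnc (ENSMUSG00000068699, chr6:29433256-29461883, plus strand) encodes filamin C, the muscle filamin that crosslinks actin at the Z-disc and is turned over by a chaperone pathway when stretched. It had 488.5, 658.0 and 803.3 CPM in the mKO controls and 989.5, 1015 and 623.9 CPM in the flox controls. Unloaded muscle held 995.3, 822.9 and 673.9 CPM in mKO and 461.3, 796.8 and 720.3 CPM in flox. Reloaded muscle held 1082, 2029 and 1023 CPM in mKO and 2266, 1946 and 1462 CPM in flox. Reloaded libraries were above unloaded ones in both genotypes, and mKO reloading library 2 reached the flox level while the other mKO reloading libraries stood below all of flox. The mKO difference was 0.73 ± 0.27 (adjusted p = 0.0702 by edgeR), which passed without mKO reloading library 3 (0.91, adjusted p = 0.0424), and in flox Flnc rose by 1.52 ± 0.28 (adjusted p = 0.000413). Against controls the reloaded level was higher by 1.08 ± 0.27 in mKO (adjusted p = 0.0451) and by 1.11 ± 0.27 in flox (adjusted p = 0.0065). The mKO call ended with the slow-fibre covariate (adjusted p = 0.0502) and in a model of only the 2 groups (0.0878).

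Nrap (ENSMUSG00000049134, chr19:56320035-56390037, minus strand) encodes nebulin-related anchoring protein, an actin-binding LIM protein of assembling myofibrils and the muscle end. Its lowest library held 1316 CPM and its highest 2193 CPM. Means were 1464 ± 197 CPM in mKO controls and 1778 ± 234 CPM in flox controls, 1917 ± 320 CPM in mKO unloading and 1834 ± 128 CPM in flox unloading, and 1893 ± 267 CPM in mKO reloading and 1849 ± 215 CPM in flox reloading (SD, n = 3 each). The reloading against unloading difference was -0.02 in mKO (95% interval -0.31 to 0.27, adjusted p = 0.95) and 0.01 in flox (-0.28 to 0.30, adjusted p = 0.963). Unloaded mKO muscle had a value 0.39 ± 0.14 above mKO controls, which did not pass in edgeR (adjusted p = 0.0968), but did in DESeq2 (0.041) and without mKO unloading library 2 (0.51, 0.0324).

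Actn2 (ENSMUSG00000052374, chr13:12269426-12340760, minus strand) encodes alpha-actinin-2, the form present in all fibre types. It had 645.0, 808.8 and 885.1 CPM in the mKO controls and 1136, 1134 and 696.1 CPM in the flox controls. Unloaded muscle held 756.5, 756.9 and 601.9 CPM in mKO and 434.0, 1150 and 777.3 CPM in flox. Reloaded muscle held 1930, 1808 and 1333 CPM in mKO and 2010, 2073 and 1758 CPM in flox. All reloaded libraries were above all 12 others, and flox unloading library 1 was the lowest of the 18. The rise against unloading was 1.26 ± 0.26 in mKO (adjusted p = 0.0024) and 1.31 ± 0.26 in flox (adjusted p = 0.00081). Against controls it was 1.12 ± 0.26 in mKO (adjusted p = 0.0301) and 0.98 ± 0.25 in flox (adjusted p = 0.00948), and the flox call ended without flox control library 3 (0.78, adjusted p = 0.0586). The mKO one ended without mKO reloading library 1 as well (1.01, adjusted p = 0.072).

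Actn3 (ENSMUSG00000006457, chr19:4861223-4877909, minus strand) moved the other way. It had 8564, 9154 and 7951 CPM in the mKO controls and 7269, 8142 and 8424 CPM in the flox controls. Unloaded muscle held 13860, 10010 and 12790 CPM in mKO and 11930, 11240 and 10510 CPM in flox. Reloaded muscle held 7176, 5825 and 7103 CPM in mKO and 4897, 4743 and 5541 CPM in flox. In each genotype the 3 loading states did not overlap: unloaded libraries were highest, controls between, reloaded lowest. Unloading raised it by 0.51 ± 0.12 in mKO (adjusted p = 0.0144 by edgeR) and 0.50 ± 0.12 in flox (adjusted p = 0.0201), the member called in both genotypes at that step. Both calls rested on few libraries. The mKO one ended without mKO unloading library 1 (0.42, adjusted p = 0.0803) or 3 (0.48, 0.0575) or mKO control library 3 (0.46, 0.0618), or with only the 2 groups in the model (0.054). The flox one ended without flox unloading library 1 (0.45, adjusted p = 0.0846) or flox control library 1 (0.44, 0.0952) or 2 (0.52, 0.0615). Reloading against unloading it fell by 0.87 in mKO (SE 0.12, adjusted p = 0.000108) and fell by 1.15 in flox (SE 0.12, adjusted p = 2.15e-06). Reloaded against control, the mKO difference was -0.35 ± 0.12, which did not pass in edgeR (adjusted p = 0.132) and passed in DESeq2 (adjusted p = 0.0491). In flox the reloaded level was lower, at -0.65 ± 0.12 (adjusted p = 8e-04).

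Opposite changes of the 2 alpha-actinin genes showed in their ratio per base of exon. In controls Actn3 had 17.4, 14.8 and 11.8 times the RPKM of Actn2 in the mKO libraries, and 8.39, 9.42 and 15.9 times in the flox libraries. Unloaded muscle had ratios of 24.03, 17.4 and 27.9 in mKO and 36.0, 12.8 and 17.7 in flox, and reloaded muscle had 4.88, 4.23 and 6.99 in mKO and 3.19, 3.00 and 4.13 in flox. All 6 reloaded ratios were therefore below all 12 others, and the mKO reloading ratios were all above the flox ones. In bulk muscle, fewer cells of a kind and less RNA of a gene per cell cannot be told apart. Summed CPM of 9 fast-fibre markers ran from 108500 to 137400 in mKO reloading and from 90550 to 108500 in flox reloading, against 114500 to 132800 in mKO unloading and 116000 to 128300 in flox unloading, with none of the markers at 0. The part of fibre type in these ratios was not tested.

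**Figure D3:**
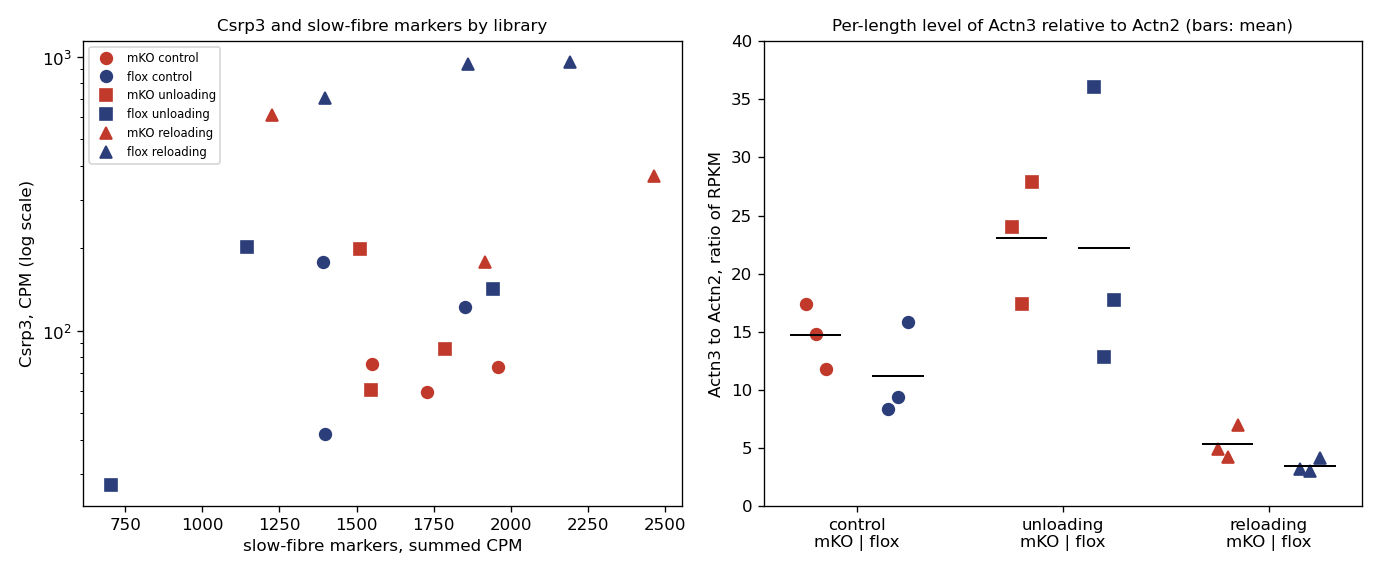
Left, Csrp3 in CPM (log scale) against the summed CPM of the 9 slow-fibre markers, 1 point per library. Right, Actn3 over Actn2 as a ratio of RPKM in each library, mKO left of flox, bars showing means of 3 libraries. Flox unloading library 1 has the lowest slow-fibre sum, 702.2 CPM, and the 6 reloaded ratios lie between 3.00 and 6.99.

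The question of genotype was asked within each loading state and then of the change between states. In reloaded muscle, 1 of the 10 members differed between mKO and flox, Ankrd1, beside 4.91% of all genes (1.06% higher, 3.85% lower). Ankrd1 averaged 49.3 ± 29.3 CPM in mKO reloading and 127.3 ± 22.7 CPM in flox reloading (SD, n = 3 each), a difference of -1.37 ± 0.36 on the log2 scale (adjusted p = 0.0355 by edgeR). That call was lost when mKO reloading library 1 or 3, or flox reloading library 1 or 2, was left out (adjusted p of 0.134, 0.176, 0.102 and 0.123), in a model of only the 2 groups (0.0907) and with the slow-fibre covariate (0.0501). Csrp3 lay lower in every mKO reloading library than in any flox one, at -1.17 ± 0.58, but did not pass (adjusted p = 0.279). Actn3 lay higher in every mKO reloading library, at 0.41 ± 0.12 (adjusted p = 0.0575), and passed in DESeq2 (0.0116) and without mKO reloading library 2 (0.50, 0.0147) or flox reloading library 3 (0.48, 0.0492). These 3 genes were the members whose ranges did not overlap, beside 22.4% of all genes. Ankrd2 differed by -0.84 ± 0.55 (adjusted p = 0.435), Xirp1 by -0.50 ± 0.40 (0.544), Flnc by -0.46 ± 0.27 (0.378) and Xirp2 by -0.15 ± 0.10 (0.432), all with overlapping ranges. The macrophage marker sums, 150.3 to 215.2 CPM in mKO reloading and 300.5 to 454.3 CPM in flox reloading, separated the same groups. The mean log2 CPM of the 9 regenerating-fibre markers was also lower in mKO reloading (2.94 to 3.31) than in flox reloading (3.55 to 3.82). Of the 9, 2 were called lower, Myog and Mymk. The summed CPM of the 9 overlapped (2157 to 2925 in mKO, 1669 to 2317 in flox). Actc1, the most abundant of the 9, differed by 0.48 ± 0.52 (adjusted p = 0.684 by edgeR). The part of these markers in the members' differences was not tested.

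Before reloading no member was called between genotypes. In unloaded muscle the count was 0 of 10 by edgeR and 0 by DESeq2, beside 0% of all genes in edgeR. At an unadjusted p under 0.05 in edgeR it was 1 of 10 (Xirp1), beside 4.58% of all genes. In controls it was 0 of 10 by edgeR and 0 by DESeq2, beside 0% in edgeR, and 0 at an unadjusted p under 0.05 in edgeR, beside 4.03%. Xirp1 in unloaded muscle averaged 254.9 ± 137 CPM in mKO and 126.0 ± 38.9 CPM in flox (SD, n = 3 each), a difference of 1.02 ± 0.41 (edgeR, unadjusted p = 0.0225, adjusted p = 1). Csrp3 in controls averaged 69.5 ± 8.57 CPM in mKO and 113.9 ± 68.3 CPM in flox, a difference of -0.71 ± 0.58 (adjusted p = 1). Actn2 in unloaded muscle differed by -0.16 ± 0.25 (adjusted p = 1).

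When the genotype difference in the change from unloading to reloading was tested directly, 0 of 10 members were called by edgeR and 0 by DESeq2, beside 0% of all genes in edgeR. At an unadjusted p under 0.05 in edgeR there were 2 of 10, beside 10.5% of all genes. Those 2 were Ankrd1, with a smaller rise in mKO (difference -1.96 ± 0.52 on the log2 scale by edgeR, unadjusted p = 0.00139, adjusted p = 0.169), and Xirp1 (difference -1.52 ± 0.57, unadjusted p = 0.0162, adjusted p = 0.363). With single libraries left out, the Ankrd1 difference ran from -2.51 to -1.61. The largest, -2.51, came without mKO reloading library 2, its highest mKO reloading library, and passed (edgeR, adjusted p = 0.0277). Csrp3 (-1.06 ± 0.82), Ankrd2 (-0.79 ± 0.78) and Flnc (-0.79 ± 0.38) had negative values with adjusted p of 0.687, 0.769 and 0.487. For the step from control to unloading, 0 of 10 were called by edgeR and 0 by DESeq2, beside 0% of all genes in edgeR. At an unadjusted p under 0.05 in edgeR there was 1, Xirp1 (1.49 ± 0.57, unadjusted p = 0.0184, adjusted p = 1), beside 4.11% of all genes. For control to reloading, 0 of 10 were called by either tool, beside 0.522% of all genes in edgeR. At an unadjusted p under 0.05 in edgeR there was 1, Ankrd1 (-1.602 ± 0.53, unadjusted p = 0.00714, adjusted p = 0.176), beside 13.3% of all genes. The Ankrd1 value ran from -2.16 to -1.26 with single libraries left out. It was -2.16 without mKO reloading library 2 (edgeR, adjusted p = 0.0294).

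**Figure D4:**
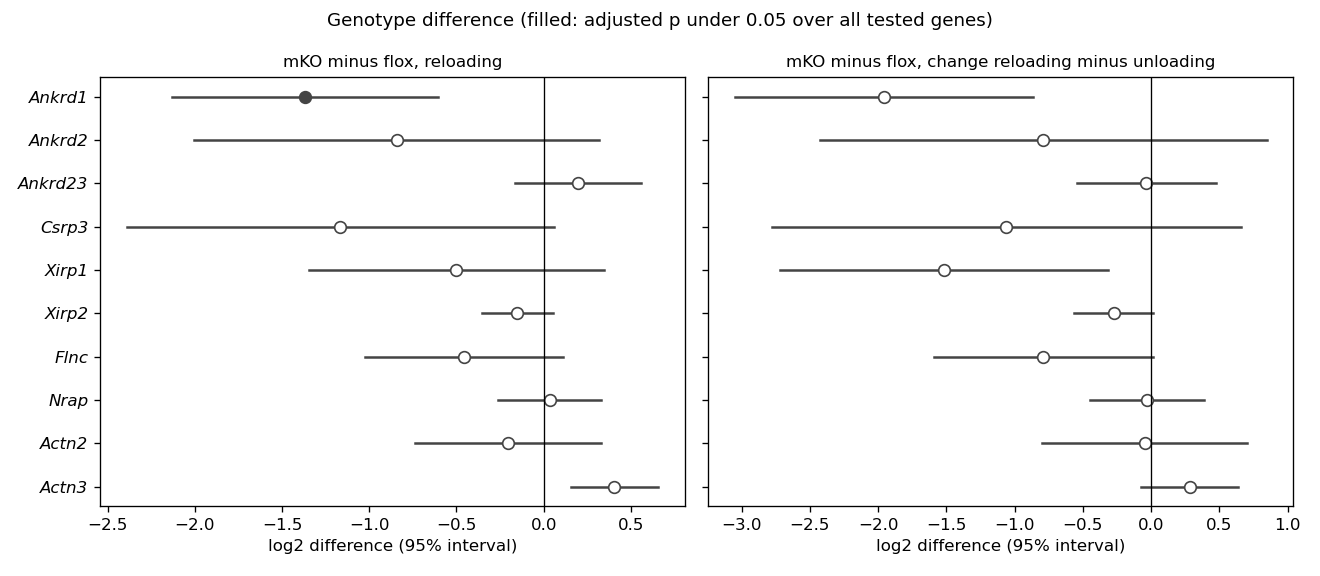
Log2 difference between mKO and flox for each gene with its 95% interval, within reloaded muscle and in the change from unloading to reloading. Filled points passed an adjusted p of 0.05 over all tested genes. Ankrd1 is the filled point, at -1.37 in reloaded muscle, and its interval in the change runs from -3.05 to -0.87 without passing after adjustment.

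The members differed widely in how far libraries of the same group lay apart. The pooled within-group SD of log2 CPM was 0.93 for Csrp3 and 0.87 for Ankrd2, in each case above that of 99.7% of 13126 genes averaging 1 CPM or more. It was 0.61 for Xirp1, 0.55 for Ankrd1, 0.40 for Flnc and 0.38 for Actn2. For Xirp2 it was 0.11 and for Actn3 0.15, near the middle or below of all genes (28.95% and 48.7% had smaller values). The deviations were shared among members. The library mKO reloading 2 was the highest of its group for 7 of the 10, flox control library 3 the lowest for 8, flox unloading library 1 the lowest for 7 and flox reloading library 3 the lowest for 8. Xirp1 and Flnc ordered the 3 libraries alike in 6 of 6 groups, and Ankrd1 and Ankrd2 in 5 of 6. Csrp3, Xirp1, Flnc and Actn2 shared the same lowest library in 6 of 6 groups. These orders come from the same 18 libraries and say nothing of cause. Whether other genes share them was not tested, so they are not shown to be particular to the members.

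Slow-fibre markers were set beside this spread, since Ankrd2, Csrp3 and Actn2 are known to be richer in, or shared with, slow fibres. Their summed CPM was 702.2 in flox unloading library 1, against 1144 and 1944 in the other libraries of that group, and Csrp3, Ankrd2 and Actn2 were lowest in that library too. In mKO reloading the highest library for most members, library 2, had the lowest slow-fibre sum, 1226 CPM against 2466 and 1915 CPM. Flox control library 3, lowest for 8 members, had 1398 CPM against 1392 and 1853 CPM. By mean log2 CPM of the same markers it was the lowest of its group, at 6.925 against 7.024 and 7.387. Flox reloading library 3, also lowest for 8 members, had the lowest slow-fibre sum of its group, 1397 CPM against 1861 and 2193 CPM. Its mean log2 CPM of these markers was lowest too, at 7.13 against 7.574 and 7.784. None of the 9 markers was at 0 in any library. With the slow-fibre level as a covariate 3 calls ended with little change in the value: Csrp3 in mKO reloading against unloading (1.68, adjusted p = 0.0648, beside 1.75 without it), Flnc in mKO reloading against control (1.09, adjusted p = 0.0502, beside 1.08) and Ankrd1 between genotypes in reloaded muscle (-1.31, adjusted p = 0.0501, beside -1.37).

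**Figure D5:**
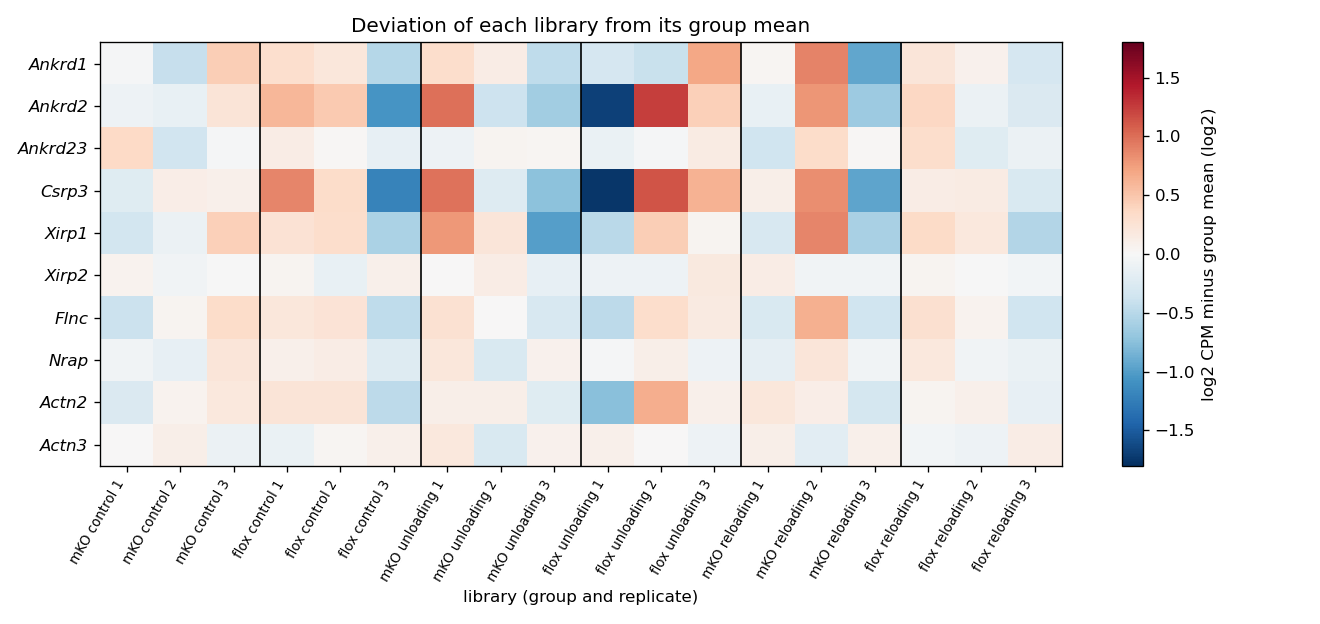
Deviation of each library from its group mean in log2 CPM, genes down the page and libraries across, with mKO left of flox within each loading state. Colour gives the sign and size. The columns of mKO reloading library 2, flox control library 3 and flox unloading library 1 share a sign over most genes, and the rows of Csrp3 and Ankrd2 carry the widest deviations.

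Among pairs of members, patterns over the 6 group means of log2 CPM, each centred on its own mean, were closest for Ankrd2 and Csrp3 (root mean square difference 0.15), Ankrd23 and Nrap (0.18) and Flnc and Actn2 (0.19). Over 12029 other genes averaging 1 CPM or more, the 3 nearest to Ankrd1 were Rrad (0.19), Tnfrsf12a (0.42) and Igf2bp2 (0.43). Those nearest to Ankrd2 were Igf2bp2 (0.22), Tnfrsf12a (0.27) and Myl6b (0.30), and to Csrp3 they were Cd68 (0.30), Igf2bp2 (0.33) and Tnfrsf12a (0.35). Xirp1 lay nearest to the immediate early gene Fos (0.15), then Enah (0.24) and Otud1 (0.28). Flnc lay nearest to Lmcd1 (0.05), G0s2 (0.13) and Ubash3b (0.13), and Xirp2 to Ext1 (0.03), the filamin chaperone gene Hspb8 (0.03) and Etv6 (0.04). Actn2 lay nearest to Pde10a (0.08), Myom3 (0.11) and Arpp21 (0.11), and Actn3 to Phka1 (0.06), Zfp956 (0.07) and Snhg8 (0.08). Nrap lay nearest to Tcof1 (0.04), Nos1 (0.05) and Myot (0.05), and Ankrd23 to Cdh15 (0.05), Zbtb40 (0.06) and Chd2 (0.06). Genes with little change over the groups lie close to one another by construction of this measure.

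Partners of the members in the same structures gave mixed counts. Of 28 genes for titin, its Z-disc partners and costamere proteins, reloading against unloading raised 10 and lowered 3 in mKO and raised 11 and lowered 5 in flox, with medians of 0.18 and 0.20. Igfn1, which encodes a Z-disc immunoglobulin-domain protein, fell by 2.40 in mKO (SE 0.32, adjusted p = 7.69e-05) and fell by 2.11 in flox (SE 0.31, adjusted p = 6.26e-05). Fhl1, a LIM protein that binds titin, rose by 1.19 ± 0.25 in mKO (adjusted p = 0.00328) and by 1.64 ± 0.26 in flox (adjusted p = 0.000101). Myoz1, a calsarcin that links alpha-actinin to calcineurin, fell by 0.51 in mKO (adjusted p = 0.00136) and fell by 0.91 in flox (adjusted p = 2.47e-06). Ldb3, which holds alpha-actinin at the Z-disc, rose by 0.66 ± 0.15 in mKO (adjusted p = 0.00519) and by 0.64 ± 0.15 in flox (adjusted p = 0.00315). Between genotypes in reloaded muscle 3 of the 28 were called, beside 4.91% of all genes. Ky was higher in mKO by 0.69 ± 0.19 and Myoz1 by 0.37 ± 0.10, and Zyx was lower by 0.51 (adjusted p = 0.0467, 0.031 and 0.0194 by edgeR).

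Chaperones that handle strained filamin, the turnover route of the Flnc product, were a further list. Of 11 genes, reloading raised 6 and lowered 1 in mKO and raised 6 and lowered 1 in flox. The small heat shock protein genes led: Cryab rose by 1.54 ± 0.26 in mKO (adjusted p = 0.000607) and by 2.14 ± 0.27 in flox (adjusted p = 1.19e-05). Hspb6 rose by 1.43 ± 0.21 in mKO (adjusted p = 0.000167) and 1.67 ± 0.21 in flox (adjusted p = 1.23e-05), and Hspb1 by 1.17 ± 0.27 in mKO (adjusted p = 0.00578) and 2.19 ± 0.28 in flox (adjusted p = 1.37e-05). Hspb7 rose by 1.30 ± 0.36 in mKO (adjusted p = 0.017) and 1.81 ± 0.36 in flox (adjusted p = 0.000983). Smaller rises were those of Hspa8, by 0.72 ± 0.14 in mKO and 1.12 ± 0.14 in flox (adjusted p = 0.00199 and 1.61e-05 by edgeR). Hspb8 rose by 0.41 ± 0.12 in mKO and 0.71 ± 0.12 in flox (adjusted p = 0.0194 and 0.000173 by edgeR). The gene lowered was Sqstm1, at -0.54 in mKO and -0.65 in flox (adjusted p = 0.0103 and 0.00143 by edgeR). Bag3, Stub1, Synpo2 and Dnajb6 did not pass in either genotype. Their adjusted p in edgeR was 0.0702, 0.747, 0.2 and 0.393 in mKO, and 0.0743, 0.755, 0.511 and 0.179 in flox. Between genotypes in reloaded muscle the 2 most abundant, Hspb6 and Cryab, had differences of -0.22 ± 0.20 (adjusted p = 0.618) and -0.73 ± 0.26 (adjusted p = 0.114), which did not pass.

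Of 14 membrane repair genes, reloading raised 9 in mKO, and raised 11 and lowered 2 in flox. Trim72, which encodes the patch protein MG53, rose by 0.81 ± 0.17 in mKO (adjusted p = 0.00274) and by 1.17 ± 0.17 in flox (adjusted p = 5.01e-05). The annexin gene Anxa2 rose by 0.60 ± 0.14 in mKO (adjusted p = 0.00729) and by 1.29 ± 0.14 in flox (adjusted p = 4.17e-06). In reloaded muscle 6 of the 14 were called, all lower in mKO, beside 3.85% of all genes called lower. They were led by Anxa2 (lower by 0.70), its partner S100a10 (by 0.57) and Anxa4 (by 0.56), with adjusted p of 0.0089, 0.00605 and 0.0288 by edgeR. Macrophages also express annexins, and the macrophage marker sums given above differed between the same groups; their part in these differences was not tested.

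Of 17 genes of the SRF, MRTF and YAP pathways, which respond to strain on actin (targets, and the regulators Srf, Yap1, Wwtr1 and Tead1), reloading raised 2 and lowered 3 in mKO, and raised 7 in flox, Tead1 and Wwtr1 among them. Egr1 rose by 1.09 ± 0.33 in mKO (adjusted p = 0.0271) and by 2.002 ± 0.34 in flox (adjusted p = 0.000219), and Cnn2 by 0.99 ± 0.16 in mKO (adjusted p = 0.000418) and 1.16 ± 0.16 in flox (adjusted p = 2.89e-05). The matricellular YAP target Ccn2 fell by 1.18 in mKO (SE 0.26, adjusted p = 0.00409), and its flox value of 0.48 ± 0.25 did not pass (adjusted p = 0.16). In reloaded muscle Ccn2 and Ccn1 were the 2 of the 17 called between genotypes, lower in mKO (fell by 1.498, SE 0.26, adjusted p = 0.00373, and fell by 1.22, SE 0.26, adjusted p = 0.0114). Of all genes, 4.91% were called in that comparison (1.06% higher, 3.85% lower). Ankrd1 is itself known as a YAP target. The lists were described by counts beside the shares over all genes, and no test compared them with other genes.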

How the data were processed

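Polyadenylated RNA of 18 gastrocnemius samples was sequenced from stranded libraries, per the labels' protocols. Per the submitters' processing notes, reads were mapped by the authors (STAR 2.7.3a, GRCm38.p6) and assigned to genes (featureCounts 2.0.3); the file header names featureCounts 1.6.4, annotation release 94, and no option for strand or multi-mapping reads. The deposited table holds raw read counts per gene. All 18 count columns were matched to samples by their labels, and 0 were left over. The deposited tables of the authors' own comparisons were not used here.

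Counts were tested with edgeR 4.0.16 in R 4.3.3: TMM scaling, the default low-count filter (17833 genes kept), 1 model of 6 group means with 12 residual degrees of freedom, quasi-likelihood F tests of 12 contrasts, and Benjamini-Hochberg adjustment over all tested genes at 0.05. The standard error is the size of the log2 fold change over the root of F, and intervals are 95%. Log2 CPM used a prior count of 2. RPKM used the exon length in the table. Library totals ran from 45069595 to 51592566 reads, and the lowest count of a member was 252. The test was checked on simulated data.

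The settings varied were the scaling (RLE or total counts), the filter (none, or at least 1 CPM in 3 libraries), the tool (DESeq2 1.42.0), only the groups compared, slow-fibre marker level or replicate number as a covariate, and leaving out each compared library. No 2 libraries of a group agreed within sampling noise.

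The members and gene lists were chosen with earlier results of these data known. All 10 members are named; from each other list, up to 3 called genes by size of change, or the 2 most abundant where fewer than 2 were called; and for each member the 3 genes of nearest pattern over the group means. Outside this rule, Tead1, Wwtr1, Srf and Yap1 were given after their values were seen. So were Pdgfra, Dcn, Actc1, Myh8, Myod1, Sqstm1, Hspa8, Hspb8, Bag3, Stub1, Synpo2 and Dnajb6, and the value in the other genotype of a gene named in one.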

Additional observations from a re-analysis of the deposited data

How the results depend on the processing

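Of the 68 log2 fold changes and differences of members examined, the 8 other settings gave 544 values, of which 499 kept their direction and their side of the threshold, 8 fell short of it, 34 newly passed it and 3 changed sign. Leaving out 1 library gave 468 values, with 407, 42, 8 and 11 in the same classes. The sign changes were all of differences that did not pass: Ankrd23 in flox reloading against unloading (9.636e-05 with total counts), Nrap in mKO reloading against unloading (0.002462 with total counts, 0.002184 with the slow-fibre covariate). With a library left out, Nrap ran from -0.143 to 0.0827 in mKO and from -0.0889 to 0.0741 in flox, Ankrd23 in mKO from -0.3225 to 0.01196, Xirp1 in mKO from -0.46 to 0.54, and Actn2 between genotypes under unloading from -0.45 to 0.22. Scaling by total counts moved the median of all genes by 0.11 in flox reloading against unloading, 0.146 against control and -0.134 between genotypes in reloaded muscle, and the share of called genes that were higher became 71.8%, 80.5% and 2.42%, beside 53.3%, 54.3% and 21.6% with TMM factors.

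With the filter, unloading against control called 2 members in mKO and 1 in flox, beside 7.75% and 5.74% of all genes. Without the filter, 8 members were called in mKO unloading against control and 5 in flox, where 1651 of 32258 genes were called. The number of all genes called in mKO without it is not given here, so those 8 have no share beside them. Between genotypes, members called numbered 4 in controls, 2 under unloading and 6 after reloading, beside 148, 133 and 1557 genes. For the genotype difference in the change, members called without it numbered 5 to reloading from unloading, 4 to unloading from control and 1 to reloading from control. Genes called there numbered 564, 122 and 755. That fit took in 32258 genes and its prior degrees of freedom were infinite, against 6 with the filter, so a gene's own spread no longer entered its test. After reloading, the genotype count of 1 member was 0 with the slow-fibre covariate, 0 with only the groups compared and 2 with DESeq2. Genes called without the filter numbered 1216 in mKO reloading against control. DESeq2 called 1538 genes in flox unloading against control (1024 in edgeR), 891 in mKO reloading against control (389), 1387 between genotypes after reloading (875), and 142 (0) and 422 (93) for the differences in change to reloading from unloading and from control. Only the groups compared gave 2107 genes (3270) in mKO reloading against unloading, 879 (1382) in mKO unloading against control, 138 in mKO reloading against control and 443 between genotypes after reloading. The slow-fibre covariate gave 642 in flox unloading against control. Total counts gave 1485 between genotypes after reloading and 284 for the difference in change to reloading from control, where the stricter filter gave 158.

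With the replicate number as a block, the difference in change called 10 genes (reloading from unloading) and 143 (reloading from control), and it changed no count of members. Deviations of same-numbered libraries correlated at -0.0744 to 0.126, and in 0 of 9 comparisons were all 3 correlations over 0.1. With 3 libraries per group these values cannot settle whether same-numbered libraries share a batch or are paired.

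Leaving out 1 library, members called ran from 8 to 8 in flox reloading against unloading, 0 to 1 in flox unloading against control, 7 to 8 in flox reloading against control, 3 to 7 in mKO reloading against unloading, 0 to 3 in mKO unloading against control, 1 to 6 in mKO reloading against control, 0 to 2 between genotypes after reloading, and 0 to 1 for the differences in change to reloading from unloading and from control. Genes called ran from 4241 to 5136, 364 to 801, 2758 to 3642, 2058 to 3245, 508 to 1466, 85 to 394, 127 to 1630, 0 to 98 and 0 to 448 in the same order. The cause of these shifts was not tested, apart from the loss of a library itself.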
